A study of Mus musculus with 14 samples.

Results

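Transcripts of the activator protein-1 (AP-1) family were measured in lung tissue of mice with and without mechanical ventilation. The family was taken as 10 named genes: the Fos proteins Fos, Fosb, Fosl1 and Fosl2, the Jun proteins Jun, Junb and Jund, and the related factors Atf3, Batf and Maff. All 10 were on the array, each by 1 probe, among 13923 genes and 19621 probes in all. The wild-type mice were C57/BL6 and the jnk1-/- mice lacked c-Jun-NH2-terminal kinase-1 (JNK1) on the same background, with all mice adult and matched for age and sex. Controls (n = 3 for each genotype) were killed right after anesthesia. Ventilated mice (n = 4 for each genotype) had a tracheostomy and breathed room air for 8 hours at a tidal volume of 10 ml/kg and 2 cmH2O positive end-expiratory pressure, with a muscle relaxant and hourly recruitment. The ventilated groups therefore also differ from the controls in time under anesthesia and in surgery, and these cannot be told apart from ventilation. Each array held RNA of the frozen right lung on a CodeLink single-colour array.

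AP-1 is a dimer of basic leucine zipper (bZIP) proteins that binds short DNA sites and controls genes of growth, stress and inflammation. Jun proteins pair with each other or with Fos proteins, whereas Fos proteins need a Jun partner. JNK1, the kinase deleted in the jnk1-/- mice, phosphorylates the activation domain of Jun, and many AP-1 genes are themselves early targets of stress kinases. Protein activity and phosphorylation were not measured here.

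Values are log2 intensities after cyclic loess normalization, and differences are log2 differences with their standard error (SE) from limma across all arrays. A gene was called where its p-value, adjusted by Benjamini-Hochberg over all 19621 probes, was under 0.05. The authors' own table has a floor at 3.12 log2 that holds 24.5% of its values, and a member at that floor is reported as such. Levels of different probes are not comparable. Whole lung was used, so a change in cell numbers and a change in RNA per cell cannot be told apart.

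The arrays carried lung transcripts, with summed lung identity markers at 14.42 to 15.29 log2 on all 14. The deleted gene, Mapk8, had a probe close to the floor, at 2.71 to 3.26 in wild-type controls and at -0.35 to 2.93 in jnk1-/- controls. After ventilation it was at 1.98 to 4.43 in wild-type and at 1.34 to 3.97 in jnk1-/- lungs. The genotypes overlapped, so the probe checked the genotype little. The 3 jnk1-/- control arrays stood apart from all other arrays in 2 marker lists. Summed skeletal muscle markers were at 13.07 to 13.62 there and at 8.13 to 9.07 on the other 11 arrays, and 10 of 10 of these genes were higher in jnk1-/- than in wild-type controls. Summed markers of stratified squamous epithelium were at 12.14 to 13.12 there and at 8.99 to 9.48 elsewhere, with 7 of 10 genes higher. Neutrophil markers rose with ventilation, from at most 12.24 in controls to between 13.54 and 14.88 after ventilation, with 6 of 10 genes called higher in wild-type and 5 higher and 1 lower in jnk1-/- lungs. B cell markers fell, from between 10.18 and 12.22 in controls to between 9.01 and 9.57 after ventilation, with 3 of 5 genes called lower in wild-type and 5 of 5 in jnk1-/- lungs. Of 6 smooth muscle and fibroblast markers, 3 were called higher with ventilation in jnk1-/- lungs. The part of these cell types in the AP-1 results was not tested.

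**Figure D1:**
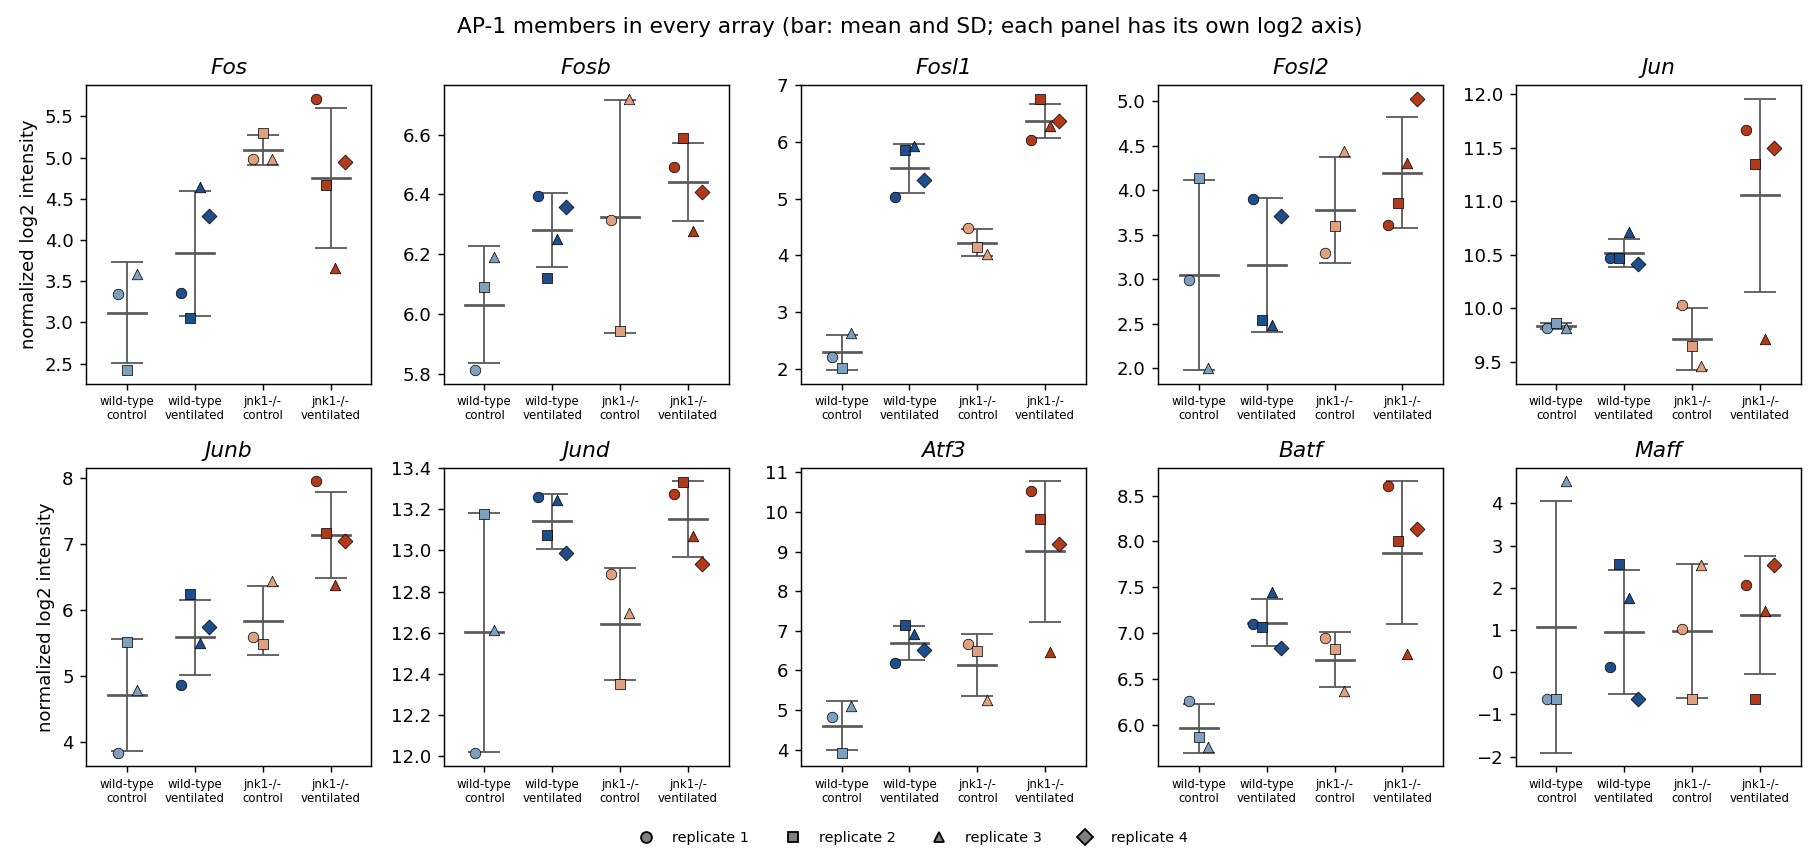
Normalized log2 intensity (y axis, a separate scale in each panel) of each AP-1 member on every array, by group (x axis). Points are arrays with a marker for each replicate number, and bars give the mean and SD. Fosl1 rises with ventilation in both genotypes without overlap, and replicate 3 of the ventilated jnk1-/- lungs lies below the other ventilated jnk1-/- arrays for Jun, Atf3 and Batf.

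The promoter bases of Jun and Atf3 are given first because these genes rose after ventilation in jnk1-/- but were not called in wild-type lungs. They were chosen after their values were seen. RefSeq on GRCm38.p6 held promoter entries for 9 of the 10 members. The exception was Fosl1, whose promoter was therefore not searched. The 250 bases before the start site are printed 5′ to 3′ on the gene's strand, with motif matches in capitals.
Jun, chr4:95052223-95052472, minus strand: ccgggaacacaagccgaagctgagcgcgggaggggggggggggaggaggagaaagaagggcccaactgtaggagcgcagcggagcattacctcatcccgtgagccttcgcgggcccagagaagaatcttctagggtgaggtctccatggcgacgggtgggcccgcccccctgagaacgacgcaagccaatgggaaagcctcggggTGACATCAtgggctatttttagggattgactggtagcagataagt
Atf3, chr1:191183334-191183583, minus strand: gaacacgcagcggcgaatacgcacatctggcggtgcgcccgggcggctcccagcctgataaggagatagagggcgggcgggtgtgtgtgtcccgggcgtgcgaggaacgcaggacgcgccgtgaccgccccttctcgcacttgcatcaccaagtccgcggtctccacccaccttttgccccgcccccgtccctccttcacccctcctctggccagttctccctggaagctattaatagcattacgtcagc

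The capitals in Jun mark TGACATCA, a variant of the AP-1 site, 45 to 38 bases before the start. On either strand it occurs in 2.93% of the 32851 promoters of the table. The AP-1 site TGACTCA occurs in 4.46% of them, the cyclic AMP response element TGACGTCA in 1.55% and the serum response element in 1.47%. These 4 motifs do not overlap in the 250 bases of any member with an entry. Of the other members, Maff held TGACGTCA at 1 of its start sites, from 29 to 22 bases before it, and TGACATCA at another. Of the 9 members with an entry, 7 held none of the 4, Atf3 among them. These letters were matched as text and no binding was measured.

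Among the Fos proteins, Fosl1 was the member that changed most clearly. Fosl1 encodes Fra-1, a Fos protein without the strong activation domain of Fos. Its log2 intensity was 2.21, 2.02 and 2.63 in wild-type controls and 5.03, 5.87, 5.93 and 5.34 after ventilation. In jnk1-/- lungs it was 4.49, 4.16 and 4.03 in controls and 6.04, 6.77, 6.29 and 6.38 after ventilation. Every ventilated array lay above every control array of its genotype, and every jnk1-/- control lay above every wild-type control.

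Ventilation raised Fosl1 by 3.25 log2 in wild-type lungs (SE 0.26, limma adjusted p = 1.12e-04). All 3 wild-type controls were at the floor of the authors' table, so the change is bounded, at least 4.62-fold by that table (limma adjusted p = 5.85e-04 on its values). In jnk1-/- lungs Fosl1 rose by 2.14 log2 (SE 0.26, limma adjusted p = 7.36e-04), which is 4.42-fold. The paper also lists Fosl1 among its genes regulated by ventilation in both genotypes, with a ratio of 4.62 in wild-type lungs. Between the controls Fosl1 was higher in jnk1-/- by 1.94 log2 (SE 0.28, limma adjusted p = 0.00386), at least 1.82-fold by the authors' table. On the values of that table it was not called (limma adjusted p = 0.0565), nor was it with the 2 control groups fitted alone (limma adjusted p = 0.0515) or by the test named in the study's methods. The jnk1-/- controls are also the arrays with high muscle and squamous markers, and the part of these markers in this difference was not tested. Among the ventilated lungs the genotype difference of 0.83 (SE 0.24) was not called (limma adjusted p = 0.224). The 2 ventilation effects differed by -1.11 (SE 0.37), which was not called either (limma adjusted p = 0.243), and with the authors' floor in place this difference was -0.07.

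Fos encodes c-Fos, the classical immediate early Fos protein. Its log2 intensity was 3.34, 2.42 and 3.58 in wild-type controls, 3.36, 3.05, 4.65 and 4.29 in ventilated wild-type lungs, 4.99, 5.30 and 4.98 in jnk1-/- controls and 5.72, 4.67, 3.66 and 4.95 in ventilated jnk1-/- lungs. The jnk1-/- controls lay above the wild-type controls without overlap, by 1.98 log2 (SE 0.53), but this was not called (limma adjusted p = 0.0597). These controls are again the arrays with high muscle and squamous markers, whose part was not tested. Fos was not called for ventilation in wild-type lungs, at 0.72 (SE 0.49, limma adjusted p = 0.457), nor in jnk1-/- lungs, at -0.34 (SE 0.49, limma adjusted p = 0.730).

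The other Fos genes were called in no comparison. Fosb, which encodes FosB, lay between 5.81 and 6.72 log2 on all 14 arrays, and its differences ran from 0.12 to 0.29 in the 4 comparisons between groups. Its interval was narrow for ventilation in jnk1-/- lungs, at -0.31 to 0.54. Fosl2, which encodes Fra-2, lay between 2.00 and 5.03, with 4 arrays at the authors' floor, all wild-type. Its largest difference, 1.04 (SE 0.51) between ventilated jnk1-/- and wild-type lungs, was not called (limma adjusted p = 0.535).

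Among the Jun proteins, Jun itself encodes c-Jun, the substrate that gave JNK its name. Jun was at 9.82, 9.87 and 9.82 log2 in wild-type controls and at 10.47, 10.47, 10.71 and 10.42 after ventilation. In jnk1-/- lungs it was at 10.03, 9.65 and 9.46 in controls and at 11.66, 11.35, 9.72 and 11.50 after ventilation. The wild-type groups did not overlap, whereas 1 ventilated jnk1-/- array, replicate 3, lay within its controls. Jun rose by 1.34 log2 with ventilation in jnk1-/- lungs (SE 0.38, limma adjusted p = 0.0408). The 0.68 in wild-type lungs (SE 0.38) was not called (limma adjusted p = 0.347), and the difference between the 2 effects, 0.66 (SE 0.54), was not called (limma adjusted p = 0.626).

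Junb encodes JunB, a Jun protein that can counter c-Jun. Junb was at 3.83, 5.51 and 4.78 log2 in wild-type controls, 4.85, 6.24, 5.49 and 5.74 in ventilated wild-type lungs, 5.58, 5.48 and 6.44 in jnk1-/- controls and 7.96, 7.17, 6.37 and 7.04 in ventilated jnk1-/- lungs. Every ventilated jnk1-/- array lay above every ventilated wild-type array, by 1.55 log2 on average (SE 0.44), but this was not called (limma adjusted p = 0.196). Ventilation differences of 0.87 in wild-type (limma adjusted p = 0.329) and 1.30 in jnk1-/- lungs (limma adjusted p = 0.0978) were not called. Jund, which encodes JunD, ranged from 12.02 to 13.33, and its differences with ventilation were 0.54 (SE 0.25) in wild-type and 0.51 (SE 0.25) in jnk1-/- lungs, neither called (limma adjusted p = 0.247 and 0.216). Between genotypes Jund differed by 0.04 (SE 0.27) in controls and 0.01 (SE 0.23) after ventilation, with an interval of -0.49 to 0.51 for the latter.

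Of the related bZIP factors, Atf3 is a stress-induced partner of Jun that often represses its targets. Atf3 was at 4.81, 3.92 and 5.09 log2 in wild-type controls and at 6.19, 7.15, 6.91 and 6.52 after ventilation. In jnk1-/- lungs it was at 6.68, 6.49 and 5.24 in controls and at 10.52, 9.83, 6.47 and 9.18 after ventilation. The wild-type groups did not overlap, and 1 ventilated jnk1-/- array, replicate 3, lay within its controls. Atf3 rose by 2.87 log2 with ventilation in jnk1-/- lungs (SE 0.78, limma adjusted p = 0.0341), which is 7.30-fold. The 2.08 in wild-type lungs (SE 0.78) was not called (limma adjusted p = 0.157), nor was the difference between the effects, 0.78 (SE 1.10, limma adjusted p = 0.790).

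Batf pairs with Jun proteins and is best known from lymphocytes. Batf was at 6.27, 5.87 and 5.76 log2 in wild-type controls, 7.10, 7.06, 7.45 and 6.84 in ventilated wild-type lungs, 6.94, 6.83 and 6.37 in jnk1-/- controls and 8.60, 8.00, 6.77 and 8.14 in ventilated jnk1-/- lungs. The wild-type groups did not overlap, and the jnk1-/- groups overlapped through replicate 3 alone. On the values normalized here its ventilation differences were nearly alike, 1.15 in wild-type (SE 0.36, limma adjusted p = 0.0970) and 1.16 in jnk1-/- lungs (SE 0.36, limma adjusted p = 0.0557), and neither was called. The difference between the 2 effects was 0.01, with an interval of -1.09 to 1.12. On the authors' values the ventilation differences were 0.68 in wild-type and 1.19 in jnk1-/- lungs. The effects differed by 0.51 there, and none of these was called. Maff, a small Maf protein, was at the authors' floor on 13 of 14 arrays, so its values carry no comparison.

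Counted over the family, ventilation in wild-type lungs called 1 of 10 members higher (Fosl1) and none lower, while 2.17% of all probes were called higher and 1.62% lower. In jnk1-/- lungs 3 of 10 were called higher (Fosl1, Jun and Atf3) and none lower, with 6.47% of all probes higher and 5.18% lower. The test named in the study's methods called 0 of 10 there, beside 0.245% of all probes. It was run without the authors' quality filter, and the paper itself lists Fosl1 as regulated in both genotypes. Jun and Atf3 each kept their call in 7 of 17 alternative settings. The controls of the 2 genotypes gave 1 of 10 higher in jnk1-/- (Fosl1) and none lower, with 1.93% of all probes higher and 2.19% lower. Among the ventilated lungs limma called 0 of 10, with 0.525% of all probes called either way. At an unadjusted p under 0.05 there were 4 (Fosl1, Junb, Atf3 and Batf), where 10.0% of all probes passed. The test named in the study's methods, with the same adjustment, called 0 as well, beside 0.0917% of all probes. The difference of the ventilation effects gave 0 of 10 by limma, with 0.382% of all probes called, and 1 at an unadjusted p under 0.05 (Fosl1), where 13.1% of all probes passed.

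The median difference of the members was 0.70 log2 with ventilation in wild-type lungs, against 0.07 over all probes, and 0.84 in jnk1-/- lungs, against -0.06. For the genotypes it was 0.74 in controls, against 0.10, and 0.80 after ventilation, against -0.02. Members above 0 numbered 9 of 10 for ventilation in wild-type and 9 of 10 in jnk1-/- lungs, beside 55.3% and 46.1% of all probes. For the genotypes they numbered 8 of 10 in controls (55.5%) and 10 of 10 after ventilation (47.7%). The last count includes Maff, at the authors' floor, and Jund, at 0.01 (SE 0.23) here and -0.05 on the authors' values. It also includes Fosb at 0.16 (SE 0.18). The count for ventilation in jnk1-/- lungs includes Maff at 0.39 (SE 1.32), Fosb at 0.12 (SE 0.19) and Fosl2 at 0.42 (SE 0.55). The wild-type count includes Fosl2 at 0.11 (SE 0.55), and the count in controls includes Jund at 0.04 (SE 0.27). The ventilation and genotype comparisons share arrays, so these counts do not stand apart from one another. Groups that did not overlap, with the first group lower, were seen for 4 of 10 members with ventilation in wild-type (10.9% of all probes), 2 of 10 with ventilation in jnk1-/- (11.9%), 4 of 10 in controls (13.8%) and 2 of 10 after ventilation (3.08%).

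**Figure D2:**
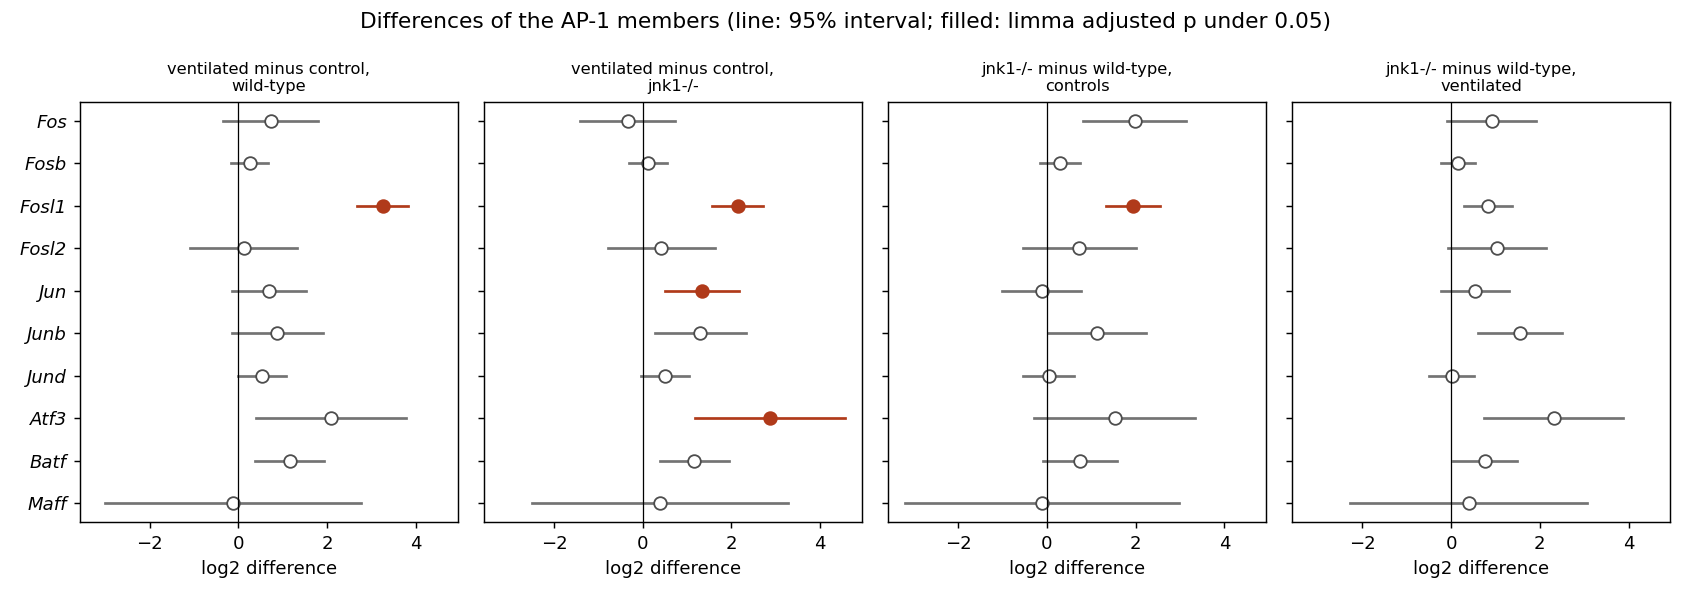
Log2 difference (x axis) of each AP-1 member (y axis) in the 4 comparisons between groups. Points are the fitted differences, lines their 95% intervals, and filled points passed an adjusted p of 0.05 in limma. Fosl1 is filled in 3 comparisons, Jun and Atf3 in 1, and no member in the comparison of ventilated lungs.

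The Jun and Atf3 calls were lost when any of 6 of the 7 jnk1-/- arrays was left out, and the remaining array stood apart. In ventilated jnk1-/- replicate 3, Jun (9.72), Atf3 (6.47) and Batf (6.77) lay below the other 3 ventilated jnk1-/- arrays, while Fosl1 (6.29) lay among them. It was the lowest of the 4 ventilated jnk1-/- arrays for 6 of the 10 members, against 26.5% of all probes and 56.8% of the 1270 probes called higher in that comparison. Its summed neutrophil markers, 14.85, were the highest of the 4, the others being 13.54 to 14.24. The part of these markers was not tested. Without this array ventilation in jnk1-/- lungs called 4 members, Batf added, and the comparison of ventilated genotypes called 3, namely Atf3 at 3.15 (limma adjusted p = 0.00812), Jun at 0.98 (limma adjusted p = 0.0235) and Batf at 1.13 (limma adjusted p = 0.0457). The array left out is the one that lay low for these same 3 genes, so their calls without it are no separate support. Calls rose over the whole array too, with 13.6% of all probes called for ventilation in jnk1-/- lungs without it against 11.7% with it, and 1.16% against 0.525% for the ventilated genotypes. Leaving out any one of the other 6 jnk1-/- arrays left 1 member called for ventilation in jnk1-/-, Fosl1, so that Jun and Atf3 lost their call. Calls fell over the whole array in these 6 fits too, to between 6.43% and 9.48% of all probes against 11.7%.

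**Figure D3:**
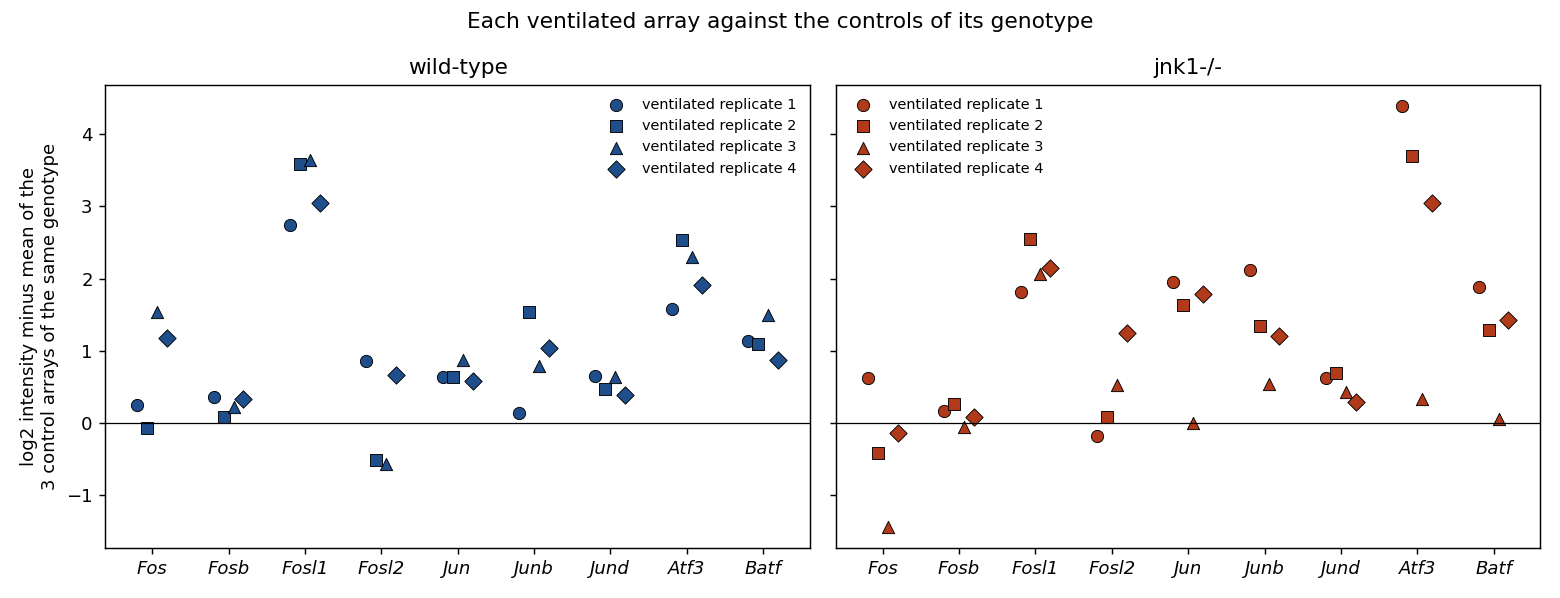
Log2 intensity of 9 AP-1 members (x axis) on each ventilated array, minus the mean of the 3 control arrays of the same genotype (y axis), for wild-type (left) and jnk1-/- lungs (right); the shared controls carry their own error. Replicate 3 of the jnk1-/- lungs lies near 0 for Jun, Atf3 and Batf but with the others for Fosl1.

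The 3 genes nearest to Fosl1 over the 14 arrays, among 7876 genes with a probe above the median level, were Serpina3n, an acute phase protease inhibitor, Alpl, an alkaline phosphatase, and Myc, a growth-linked transcription factor. Their values, each centred on its mean, differed from those of Fosl1 by a root mean square of 0.50, 0.56 and 0.56 log2, against a spread of 1.54 in Fosl1 itself.

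Other genes around AP-1 were read from lists chosen with earlier results of these data known. Of 24 measured bZIP factors outside the family, limma called 0 with ventilation in wild-type lungs (11 at an unadjusted p under 0.05, which 20.3% of all probes passed), and 8 higher and 1 lower in jnk1-/- lungs, where 6.47% and 5.18% of all probes were. Atf4, the effector of the integrated stress response, rose by 1.72 log2 (limma adjusted p = 6.96e-04), and the small Maf genes Mafk and Mafg by 1.84 and 1.70 (limma adjusted p = 0.00370 and 0.00548). Crem, a cyclic AMP-responsive factor, rose by 2.70 (limma adjusted p = 0.00742). The differences of these 4 in wild-type lungs were 0.71, 1.01, 1.01 and 1.29, not called. On the authors' values Atf4 was called in wild-type lungs too, at 0.64 (limma adjusted p = 0.0446), and Mafk, Mafg and Crem were not. For the difference between the 2 ventilation effects limma called 0 of these factors, with 3 at an unadjusted p under 0.05, near the 13.1% of all probes. Of the 8 that rose, 7 were lowest in replicate 3 among the ventilated jnk1-/- arrays. So were 56.8% of all probes called higher with ventilation in jnk1-/- lungs and 26.5% of all probes. The list's median difference was 0.60 in wild-type and 0.54 in jnk1-/- lungs.

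Of 23 measured genes of JNK and other MAP kinase steps, 2 were higher with ventilation in wild-type lungs and 6 higher and 1 lower in jnk1-/- lungs, beside 2.17% of all probes higher in the first and 6.47% higher and 5.18% lower in the second. Map3k6, a stress-activated kinase kinase kinase, rose in both, by 2.91 (limma adjusted p = 1.12e-04) and 3.26 (limma adjusted p = 4.25e-05). Dusp1, a phosphatase that inactivates JNK and p38, counted in this list and among the immediate early genes, rose by 1.23 in wild-type lungs (limma adjusted p = 0.00671) and was higher in jnk1-/- than in wild-type controls by 1.26 (limma adjusted p = 0.00860). With ventilation in jnk1-/- lungs its difference was 0.21 (limma adjusted p = 0.554). The difference between its 2 ventilation effects, -1.02, was not called (limma adjusted p = 0.153). In the controls comparison Mapk8ip3, a JNK scaffold, was lower by 1.21 in jnk1-/- (difference -1.21, limma adjusted p = 0.0203). For both genes the jnk1-/- controls are the arrays with high muscle and squamous markers, whose part was not tested.

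Of 25 measured genes known as AP-1 targets, 6 were higher with ventilation in wild-type and 7 in jnk1-/- lungs, beside 2.17% and 6.47% of all probes, and none lower. Mt2, a metallothionein, rose by 4.15 and 3.62 log2, Srxn1, an antioxidant reductase, by 3.38 and 3.17, Hmox1, heme oxygenase-1, by 2.47 and 2.45, and Timp1, a protease inhibitor, by 1.42 and 2.00, the first value in wild-type lungs. Factors other than AP-1 also act on these genes. Mmp3, a matrix protease, rose by 2.73 in jnk1-/- lungs, where its controls were lower than wild-type controls (difference -2.29). Sprr1a, a gene of squamous epithelium, was at the authors' floor in all 3 wild-type controls, and on that table's values it was at least 16.6-fold higher in jnk1-/- controls (limma adjusted p = 0.00889), the arrays with the high squamous markers. Its rise in ventilated wild-type lungs, at least 4.43-fold, was called on the values normalized here (limma adjusted p = 0.00565) but not on that table's (limma adjusted p = 0.0886). With ventilation in jnk1-/- lungs Sprr1a differed by 0.12 (limma adjusted p = 0.945), while 9 of 10 squamous markers were called lower. The part of squamous cells in the Sprr1a values was not tested. Of 15 other immediate early genes, 3 were higher with ventilation in wild-type lungs (Myc by 2.11, Dusp1 by 1.23 and Zfp36 by 1.10) and 2 higher and 1 lower in jnk1-/- lungs (Myc by 1.95, Zfp36 and Klf2 at -1.51), beside 2.17% of all probes higher in the first and 6.47% higher and 5.18% lower in the second. In the comparison of ventilated genotypes 1, Ier2, was called higher in jnk1-/-, by 0.99 (limma adjusted p = 0.0243), where 0.240% of all probes were. At an unadjusted p under 0.05 there were 10 of 15 either way, Klf2 among them at -0.61, where 10.0% of all probes passed. The median of these 15 genes was 0.99, against -0.02 over all probes. Ier2 was also 0.72 higher in jnk1-/- than in wild-type controls. That was not called here (limma adjusted p = 0.0616) but was on the authors' values (limma adjusted p = 0.0175).

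**Figure D4:**
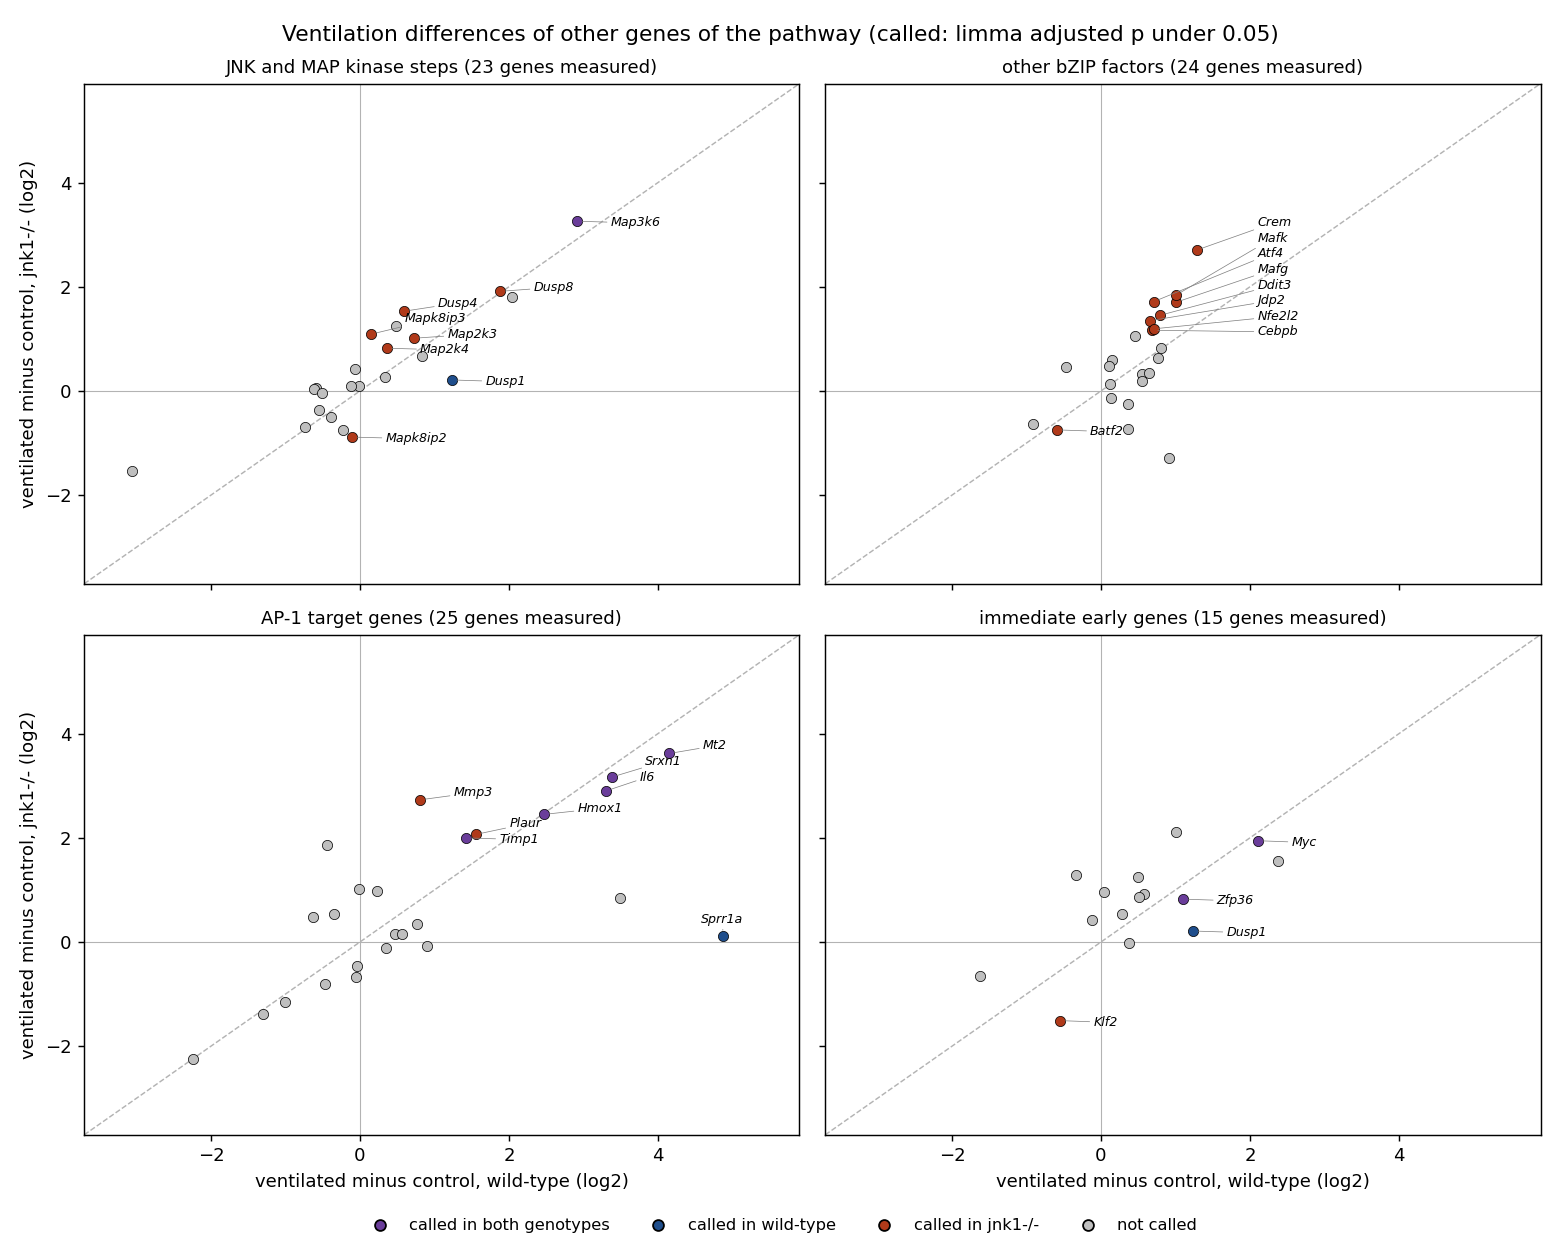
Ventilation difference in wild-type lungs (x axis, log2) against jnk1-/- lungs (y axis, log2) for the measured genes of 4 lists, 1 point a gene; the dashed line marks equal differences. Colours give the calls at a limma adjusted p of 0.05. The 8 bZIP factors called higher were called in jnk1-/- lungs alone, so their place above the line follows largely from that choice. Map3k6, Mt2 and Srxn1 lie far from 0 on both axes. Sprr1a is set against wild-type controls below the authors' floor.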

How the data were processed

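The 14 CodeLink arrays were deposited as log2 intensities per probe, with no quality flags to repeat the authors' quality filter, and the authors' series table holds their cyclic loess values on the log2 scale with a floor. The loess was rebuilt here in R 4.3.3, over all pairs of arrays in 1 pass with a span of 0.667, values at the lowest deposited value left out of the curves, and a floor at the 1st percentile (-0.64). One pass was chosen over several after comparison with the authors' table. limma 3.58.1 fitted 4 group means to all 14 arrays, with Benjamini-Hochberg adjustment over 19621 probes and a threshold of 0.05. The code was tested on simulated data. The labels do not say that each array is a separate animal, while the methods speak of animals, and p-values measure the spread between arrays. The number of arrays limits the precision. One title with a strain misprint was taken as wild-type. Genes were named by the platform table: 15353 probes have 1 gene, 91 several and 4177 none. All 10 members were named, with up to 4 genes of each other list by lowest adjusted p, plus others chosen after their values were seen. The members and lists were chosen with earlier results of these data known. Raw array medians were 4.98 to 6.37 log2, and 10.7% and 6.98% of values on wild-type controls 2 and 3 were at the lowest value, against 1.86% to 4.52% elsewhere. The methods' Welch's test, 9 other settings and leaving out each array were the alternatives.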

Additional observations from a re-analysis of the deposited data

Results flagged for a closer look

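In the ventilated jnk1-/- lungs Jun was at 9.72 log2 on replicate 3, far below 11.35 to 11.66 on the other 3 arrays. Its gap to the nearest array took up 0.837 of the group's range, just over Dixon's 95% critical value for 4 arrays. Of 20 groups of 4 arrays tested this was the 1 flag, and chance gives about 1 in 20. Atf3 and Batf had their lowest value on the same array, with gaps of 0.669 and 0.671 of their range, below Dixon's value.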

How the results depend on the processing

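Fosl1 was called for wild-type ventilation in all 17 alternatives run for it (2.21 to 3.42 log2). The share of all probes called is given in brackets beside each count of members called. The number of members called for wild-type ventilation was 1 (3.78%), apart from 2 with the arrays of the 2 groups alone (2.25%, Atf3 added) and 2 with array weights (11.3%, Batf added). For jnk1-/- ventilation it was 3 (11.7%), but 0 with the methods' Welch's test (0.245%), 1 with the 2 groups fitted alone (3.24%) and 1 under the replicate block (6.32%). It was 1 after averaging close control arrays (5.17%), 4 without dim probes (20.5%, Batf added), and 5 with array weights (19.2%, Junb and Batf added). Leaving out 1 array gave 1 to 4 (6.43% to 13.6%). Between controls it was 1 (4.12%), but 0 with the authors' values (6.03%), 0 with Welch's test (0.0102%) and 0 with the 2 groups fitted alone (0.596%). It was 2, Fos added, without dim probes (7.53%), and also 2 with array weights (11.3%). Between ventilated genotypes it was 0 (0.525%), and 0 to 3 with 1 array left out (0.234% to 1.16%). Of the 31 differences at or above their standard error, none changed sign, 24 of 542 alternative values lost a call and 11 gained one. Replicate numbers did not pair the samples (correlations of deviations -0.045 to 0.078), and the replicate block changed no other count. The cause of these changes was not tested. Each member has 1 probe, so the choice of probe could not be varied, and no alternative reported here rests on Maff without dim probes, a filter that drops it. Of the 19 differences smaller than their standard error, 15 changed sign somewhere and none was called. With quantile normalization the values were Fosl2 -0.026 (wild-type ventilation), Maff 0.094 (wild-type ventilation), Jund -0.053 (controls), Jund -0.029 (ventilated genotypes), Jund 0.024 (effect difference). With fast cyclic loess the values were Maff 0.097 (wild-type ventilation), Jund 0.017 (effect difference), Batf -0.089 (effect difference). With authors' normalized values the values were Jund -0.057 (controls), Jund -0.052 (ventilated genotypes), Jund 0.0042 (effect difference). With no floor the values were Maff 1.97 (wild-type ventilation), Maff 1.62 (controls), Maff -1.17 (effect difference). With replicate block the values were Fosl2 -0.12 (wild-type ventilation). With array weights the values were Fosb 0.11 (effect difference), Jund 0.016 (effect difference), Batf -0.15 (effect difference). With close control arrays averaged the values were Maff 0.31 (wild-type ventilation), Maff -0.0036 (jnk1-/- ventilation), Maff 0.71 (controls), Maff -0.31 (effect difference). With 1 array left out their ranges were Jund -0.25 to 0.33 (controls), Jund -0.32 to 0.26 (effect difference), Batf -0.23 to 0.38 (effect difference), Fosl2 -0.24 to 0.83 (effect difference), Fosl2 -0.41 to 0.66 (wild-type ventilation), Maff -0.99 to 1.60 (wild-type ventilation), Maff -0.97 to 1.61 (controls), Maff -1.21 to 1.37 (effect difference), Jund -0.048 to 0.084 (ventilated genotypes), Maff -0.13 to 1.07 (ventilated genotypes), Fosb -0.076 to 0.31 (jnk1-/- ventilation), Maff -0.42 to 1.17 (jnk1-/- ventilation), Jun -0.28 to 0.0052 (controls), Fosb -0.33 to 0.064 (effect difference), Fos -0.66 to 0.021 (jnk1-/- ventilation). Signal near the floor limits Fosl1 in wild-type controls, Fos, Fosl2 and Maff. The median of all probes for the effect difference was -0.12.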

Other observations

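The genes nearest in pattern to Jun, Atf3 and Batf over the 14 arrays were looked up after their values were seen, by the same measure as for Fosl1 and among the same 7876 genes. Nearest to Atf3 were Hspd1, a mitochondrial chaperone, and Dnajb1, an Hsp40 co-chaperone, at a root mean square difference of 0.70 and 0.71 log2 against a spread of 1.84 in Atf3. Their ventilation differences were 0.82 and 0.64 in wild-type lungs and 2.98 and 3.25 in jnk1-/- lungs. Jmjd6 was nearest to Jun, at 0.26 against a spread of 0.70, and was also among the 3 nearest to Batf, at 0.34 against 0.80. These are descriptions of likeness over the same arrays, with no test.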
